A study of Drosophila melanogaster with 2 samples.

Results

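The genes described here are 32 Drosophila melanogaster genes of the sarcomere and of muscle, out of 13945 protein-coding genes on the main chromosome arms. They were chosen by name, as the structural proteins of the contractile apparatus plus a pair of regulators, and not by a cutoff on any measured value. Earlier results of these data were known when these genes and the further lists below were chosen. Of the 32 symbols, 31 matched the Ensembl annotation directly, and Unc-89 matched under the name Obsc. Each gene was searched for peak summits within 1000 bp of any of its start sites (promoter summits) and within its body.

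Chromatin was precipitated through the green fluorescent tag of CG12605-eGFP, a fusion made by flies of the strain CG12605-GFP that carry an insertion targeting CG12605. The material was whole pupae at an age of 1 day, and the labels give the sex as not collected. The labels do not say whether the tagged copy is additional to the endogenous gene, or how many animals each library pools. The 2 libraries are biological replicates of this single group, and there is no second condition, so no test between groups was possible and values are given as descriptions. Whole animals hold muscle together with all other tissues, so fewer cells carrying a site and weaker binding per cell cannot be told apart.

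The sarcomere is the contractile unit of striated muscle, in which thick filaments of myosin slide along thin filaments of actin. Tropomyosin and the troponins make that sliding depend on calcium, Z-discs anchor the thin filaments, and giant proteins of the titin family tie the parts together. In the pupa most larval muscles are broken down and the adult muscles are built. The transcription factor Mef2 drives the expression of many sarcomere genes. CG12605 belongs with Snail and Scratch among the zinc finger transcription factors, a family whose proteins bind E-boxes, sites of the form CANNTG.

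The main list is the authors' conservative list of 6776 peaks, which passed an irreproducible discovery rate (IDR) of at most 0.01. The IDR is low for a peak that ranks high in both of the paired peak calls. The thresholded list of replicate 1 holds 4022 peaks and that of replicate 2 holds 5394. The ranked lists hold weaker calls as well, with 41147 peaks in replicate 1 and 46268 in replicate 2. The signal value of a peak is the authors' own, with a median of 85.6 in the conservative list, 53.8 in the thresholded list of replicate 1 and 55.0 in that of replicate 2. How it was scaled is not stated, so values are read within a list. The read depth behind these lists is unknown.

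The following windows reach 50 bases to either side of summits of 4 members, and they are shown because these are among the strongest summits of members whose sequence can be shown here. They are written on the strand of the gene, from the Release 6 assembly (dm6 coordinates, counting from 1), with E-boxes, GAGAG and TATAAA on either strand in capitals.
Msp300, chr2L:5145717-5145817, plus strand, signal 270.3: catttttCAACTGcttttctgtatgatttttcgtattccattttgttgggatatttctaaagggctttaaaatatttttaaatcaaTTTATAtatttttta
Msp300, chr2L:5108092-5108192, plus strand, signal 124: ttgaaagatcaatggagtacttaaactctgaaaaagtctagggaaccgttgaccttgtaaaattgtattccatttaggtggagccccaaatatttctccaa
sls, chr3L:2115853-2115953, minus strand, signal 147: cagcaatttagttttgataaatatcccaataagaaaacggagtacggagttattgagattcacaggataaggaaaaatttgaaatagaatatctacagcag
tmod, chr3R:30570717-30570817, plus strand, signal 118: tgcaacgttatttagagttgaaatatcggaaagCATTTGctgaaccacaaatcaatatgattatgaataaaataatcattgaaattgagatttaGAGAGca
how, chr3R:22049267-22049367, plus strand, signal 106: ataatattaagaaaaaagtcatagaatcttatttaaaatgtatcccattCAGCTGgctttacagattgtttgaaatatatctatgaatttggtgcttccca

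These windows are rich in A and T. The GC content was 21.8% in the stronger Msp300 window, 36.6% in the weaker one, 31.7% at sls, 28.7% at tmod and 27.7% at how. Over all 26 summits linked to members the median GC content was 36.6% (range 21.8 to 58.4), and it was 36.6% over all 6776 conservative summits (range 10.9 to 74.3). The windows at sls and the weaker Msp300 summit held none of the 3 marked motifs, while those at how and tmod and the stronger one of Msp300 each held an E-box.

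In the conservative list, 6 of the 32 members (18.8%) had a promoter summit, against 23.1% of all protein-coding genes. They were Msp300, sls, tmod, Mef2, Zasp52 and Actn. A summit in the gene body was found at 7 members (21.9%), against 15.7% of all genes: Msp300, tmod, Mef2, Zasp52, how, Tm1 and TpnC73F. At least 1 of the 2 kinds was present at 9 members (28.1%), against 26.0% of all genes. The promoter share lay near that of genes of all lengths, so this count by itself is not read as a trait of the list. That background is not matched to the members for gene length or number of start sites, and the shares by class are given further on. 

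By role, the members were split into filament genes and the rest. The 19 genes for thick filaments, actins and thin filament regulation included 1 with a promoter summit, tmod, and 16 with no conservative summit at the promoter or in the body. The other 13 members, covering the giant proteins, the Z-disc, the nuclear anchor and the regulators, included 5 with a promoter summit and 7 with neither kind. A summit of either kind was thus present at 3 of 19 and 6 of 13, beside the 26.0% of all genes, so lacking both is the usual state of a gene, and whether the groups differ was not tested. These groups also differed in gene length, with a median of 4.43 kb (range 1.44 to 46.3) for the filament genes and 18.7 kb (range 2.21 to 106) for the others. The part of length in these counts was not tested, and the shares by length class are given further on.

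**Figure D1:**
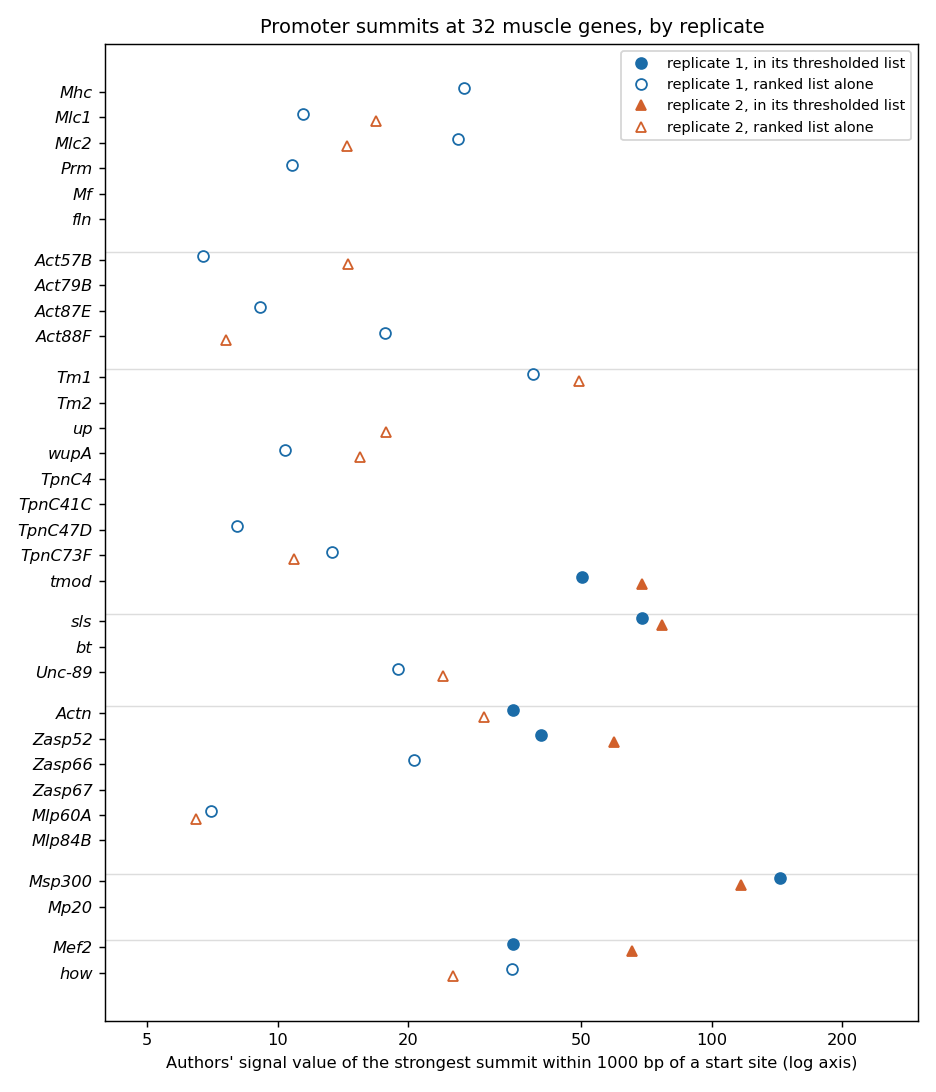
Signal value of the strongest summit within 1000 bp of a start site (log axis) for each of the 32 genes, grouped by role, with circles for replicate 1, triangles for replicate 2 and filled symbols for summits in the replicate's thresholded list. Filled symbols appear for 6 genes in replicate 1 and 5 in replicate 2, where the symbol of Actn is unfilled, and rows without a symbol have no promoter summit in either ranked list.

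None of the 6 thick filament genes had a conservative summit at the promoter or in the body. Mhc, the single muscle myosin heavy chain gene (2L, 16766566 to 16788766), had 5 start sites, and the nearest conservative summit to any of them lay 45695 bp away. Its replicate 1 ranked list held a promoter summit of signal 26.8 at an IDR of 0.0711, 53 bp upstream of a start site, and the replicate 2 ranked list held none. Mlc1, the alkali light chain of myosin, had promoter signals of 11.4 in replicate 1 and 16.8 in replicate 2, at IDRs of 0.371 and 0.314. Mlc2, the regulatory light chain, had 26.0 and 14.4, at IDRs of 0.0678 and 0.179. These ranked calls were all short of the IDR limit in both replicates.

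Among the remaining thick filament genes, Prm, which encodes paramyosin of the filament core, had a promoter summit of signal 10.8 at an IDR of 0.750 in replicate 1 and none in replicate 2. Mf, the gene for myofilin, and fln, the gene for the flight muscle protein flightin, had no summit at the promoter or in the body in the conservative ranked list or either replicate's ranked list. The nearest conservative summits to their start sites were 14971 bp and 11383 bp away.

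The 4 muscle actin genes also had no conservative summit. Act57B gave ranked promoter signals of 6.73 in replicate 1 and 14.5 in replicate 2. Act88F, the actin of the indirect flight muscles, gave 17.7 and 7.59. Act87E gave 9.08 in replicate 1 and none in replicate 2, and Act79B had none in either. None of these calls was in a replicate's thresholded list. The medians of the ranked lists were 13.2 in replicate 1 and 13.9 in replicate 2. Act88F in replicate 1 and Act57B in replicate 2 lay above them, and the other actin values lay below. Actin coding sequences are nearly identical to each other, and the handling of reads that match several copies is not stated. Conservative summits lay 2091 bp from a start site of Act87E, 11949 bp from Act88F, 12718 bp from Act79B and 52702 bp from Act57B.

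The regulators of the thin filament held summits at 3 of 9 genes. tmod encodes tropomodulin, which caps the slow-growing end of the actin filament (3R, 30532607 to 30578905, plus strand). It carried 4 conservative summits, all inside the gene. The strongest, at 30570767, had a signal of 118, with 50.2 in replicate 1 and 69.2 in replicate 2, and lay in an intron 390 bp upstream of the start site of the transcript tmod-RB. Both replicates kept it in their thresholded lists.

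A further tmod summit at 30563283 had a signal of 57.9 and lay 103 bp downstream of the start site of tmod-RA, in a 5′ UTR exon. Its signal was 21.5 in replicate 1, at an IDR of 0.569, and 38.8 in replicate 2, at an IDR of 0.00557, so replicate 2 alone kept it in its thresholded list. The remaining tmod summits were intronic, at 30540420 with 87.9 and at 30567428 with 79.4. Of 9 annotated start sites 2 had a summit within 1000 bp, and each of those begins a single transcript of the 18. The start site used by 6 transcripts, at the 5′ end of the gene, had none.

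Tm1, a tropomyosin gene (3R, 15278220 to 15308779), had 1 conservative summit, at 15293176 in an intron, with a signal of 67.0. Replicate 1 gave 31.6 and replicate 2 gave 38.2, at IDRs of 0.0190 and 0.0114, so neither thresholded list held it. Nearer to its start sites, the ranked lists held peaks that the thresholded lists do not carry. In the conservative ranked list a summit 444 bp downstream of a start site had a signal of 70.1 at an IDR of 0.00205, within the limit. In replicate 2 a different summit, 461 bp upstream of a start site, had 49.4 at an IDR of 0.00632. Over the whole series, 180 ranked peaks within the limit were likewise not in the conservative list, and Tm1 was the member with such peaks, 1 in the conservative comparison and 1 in that of replicate 2. Tm2, the neighbouring tropomyosin gene, had no summit in the conservative ranked list or either replicate's ranked list.

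Among the troponin genes, TpnC73F, a troponin C gene for the calcium sensor of the thin filament (3L, 17046063 to 17048390, plus strand), had 2 summits in its 3′ UTR exon. The summit at 17048157 had a signal of 73.7, with 21.2 in replicate 1, at an IDR of 0.158, and 48.7 in replicate 2, at an IDR of 0.00187. The nearest start site was that of rogdi, 1355 bp away, so the summit lay closer to a neighbouring gene's start than to that of TpnC73F. The other summit, at 17048371, had a signal of 9.75, close to the lowest of the conservative list at 8.83, and had no partner in either replicate's ranked list.

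The stronger TpnC73F summit was the one member summit with CAACAGGTG within 50 bases, a sequence present at 0.871% of all conservative summits. The site lies 27 bp from the summit, and the 29 bases around it are shown because they hold this E-box, in capitals as its reverse complement.
TpnC73F, chr3L:17048116-17048144, plus strand: cgcacacgcaCACCTGTTGgacacacgtt

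The rest of the troponin genes had no conservative summit. up, which encodes troponin T, had no promoter summit in the ranked list of replicate 1 and 17.8 at an IDR of 0.402 in replicate 2. wupA, which encodes troponin I, had 10.4 and 15.5. TpnC47D had 8.06 in replicate 1 alone, and TpnC4 and TpnC41C had no summit in the conservative ranked list or either replicate's ranked list. The nearest conservative summits to TpnC4 and TpnC41C were 176348 bp and 614004 bp away, at the same position on 2R.

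Of the giant and M-band proteins, sls had a promoter summit and the other 2 did not. sls encodes the titin-like proteins of the Z-disc and I-band (3L, 2039681 to 2115611, minus strand), and all 13 of its annotated transcripts begin at 1 start site. The summit lay 292 bp upstream of it, with signals of 69.0 in replicate 1 and 76.8 in replicate 2, and passed the threshold in both. No conservative summit fell in its body of 75.9 kb. Unc-89, the obscurin gene of the M-band, had ranked promoter signals of 18.9 and 24.0, and its conservative ranked peak of 36.4 had an IDR of 0.0263. bt encodes projectin of the thick filament and the connecting filament, and it had no summit in these ranked lists. It lies on chromosome 4, where 2 of 80 genes (2.50%) had a conservative promoter summit.

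Zasp52 and Actn were the Z-disc genes with promoter summits. Zasp52 encodes a PDZ and LIM domain protein that binds alpha-actinin (2R, 15762565 to 15817004, minus strand). It had 4 conservative summits, and 2 of its 3 start sites had a summit within 1000 bp. The one at 15815156, with a signal of 68.7, lay 239 bp upstream of the start site of 18 of the 22 transcripts. Replicate 1 gave 25.3 at an IDR of 0.0782 and did not keep it, and replicate 2 gave 42.3 and kept it. The one 92 bp upstream of the gene's 5′ end had 40.4 and 59.6, and both replicates kept it. Intronic summits at 15785031 and 15808802 had signals of 112 and 95.2. At the former the replicates gave 55.6 and 60.9, and at the latter 46.7 and 48.3. Of the 4 summits, 3 also lie within the overlapping gene tun, the exception being the one at 15785031.

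Actn, the gene for alpha-actinin, which crosslinks thin filaments at the Z-disc (X, 2023822 to 2042311, minus strand), had the lowest signal when the strongest promoter summit of each bound member is compared. Its signal was 65.6, higher than 27.7% of conservative peaks, and the summit lay 60 bp upstream of the start site of 4 of the 9 transcripts. Replicate 1 gave 34.9 and kept it, and replicate 2 gave 29.8 at an IDR of 0.0315 and did not. The summit is also within 1000 bp of start sites of usp, which encodes the partner of the ecdysone receptor, and of CG4313, so it cannot be given to Actn alone.

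The other Z-disc members had no conservative summit. Zasp66 had a ranked promoter signal of 20.6 in replicate 1 and none in replicate 2, and Zasp67 had none in either. Mlp60A, a muscle LIM protein gene, had 7.03 and 6.46, and Mlp84B, its paralog, had no summit in the conservative ranked list or either replicate's ranked list.

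Msp300 had the highest signal of any member. It encodes a nesprin that links muscle nuclei to the cytoskeleton (2L, 5100877 to 5207002, plus strand). The summit at 5145767 had a signal of 270.3, above 93.6% of conservative peaks, with 144 in replicate 1 and 117 in replicate 2. It lay 619 bp upstream of the start site of Msp300-RF, a transcript for a protein of 407 residues. The summit at 5108142, with 65.9 and 65.6 in the replicates, lay 370 bp upstream of the start site of Msp300-RD and Msp300-RL, whose proteins run from 12308 to 12345 residues. A start site for Msp300-RB is also within 1000 bp of it. Thus start sites of both the shortest and very long annotated forms had summits, while the start site at the 5′ end of the gene, used by 4 of 11 transcripts, had none. Mp20, a calponin-like muscle gene, had no summit in these ranked lists.

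Mef2 carried more conservative summits than any other member. This gene for the MADS-box factor of muscle (2R, 9913496 to 9958858, minus strand) had 7, all in its body. The thresholded list of replicate 1 held 4 body summits of Mef2. That of replicate 2 held 3, fewer than the 4 at tmod and the 4 at Zasp52. The strongest Mef2 summit, at 9955295, had a signal of 231, above 91.3% of conservative peaks, and lay in an intron 3563 bp downstream of the gene's 5′ end. Replicate 1 gave it 92.3 and replicate 2 gave 125, and both kept it. The summit 188 bp upstream of the start site of 8 of the 11 transcripts had 34.8 in replicate 1 and 65.5 in replicate 2, and both kept it too.

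At the 5′ end of Mef2, weaker summits at 9958797 and 9958215 had signals of 57.0 and 60.5. The former is within 1000 bp of start sites of Pal1 and Pdrg1 as well, and neither was in a replicate's thresholded list. The remaining Mef2 summits were intronic, with signals of 97.0, 77.7 and 71.2, and both replicates kept the one of 97.0. Those of 77.7 and 71.2, at 9935784 and 9935985, belong to overlapping peaks and were in neither replicate's thresholded list. The one at 9935784 had no partner in the ranked list of replicate 1.

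how encodes an RNA-binding protein that controls splicing in muscle and tendon cells (3R, 22042191 to 22079321, plus strand). It had 3 intronic summits and no conservative promoter summit. The one at 22049317, 7126 bp downstream of its start site, had a signal of 106, with 43.3 in replicate 1 and 59.6 in replicate 2, and both kept it. The other summits, at 22046278 and 22046485, had signals of 52.1 and 16.2 and belong to overlapping peaks. Neither was in a replicate's thresholded list. The one of 52.1 had no partner in the ranked list of replicate 2, and the one of 16.2 had none in either replicate's. The strongest ranked promoter summit of how, 960 bp downstream of the start site, had 58.2 at an IDR of 0.0180. The series-level thresholded list does hold this summit, at an IDR of 0.00937, and has promoter summits at 7 members (21.9%, against 23.6% of all genes) and body summits at 8 (25.0%, against 16.0%).

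**Figure D2:**
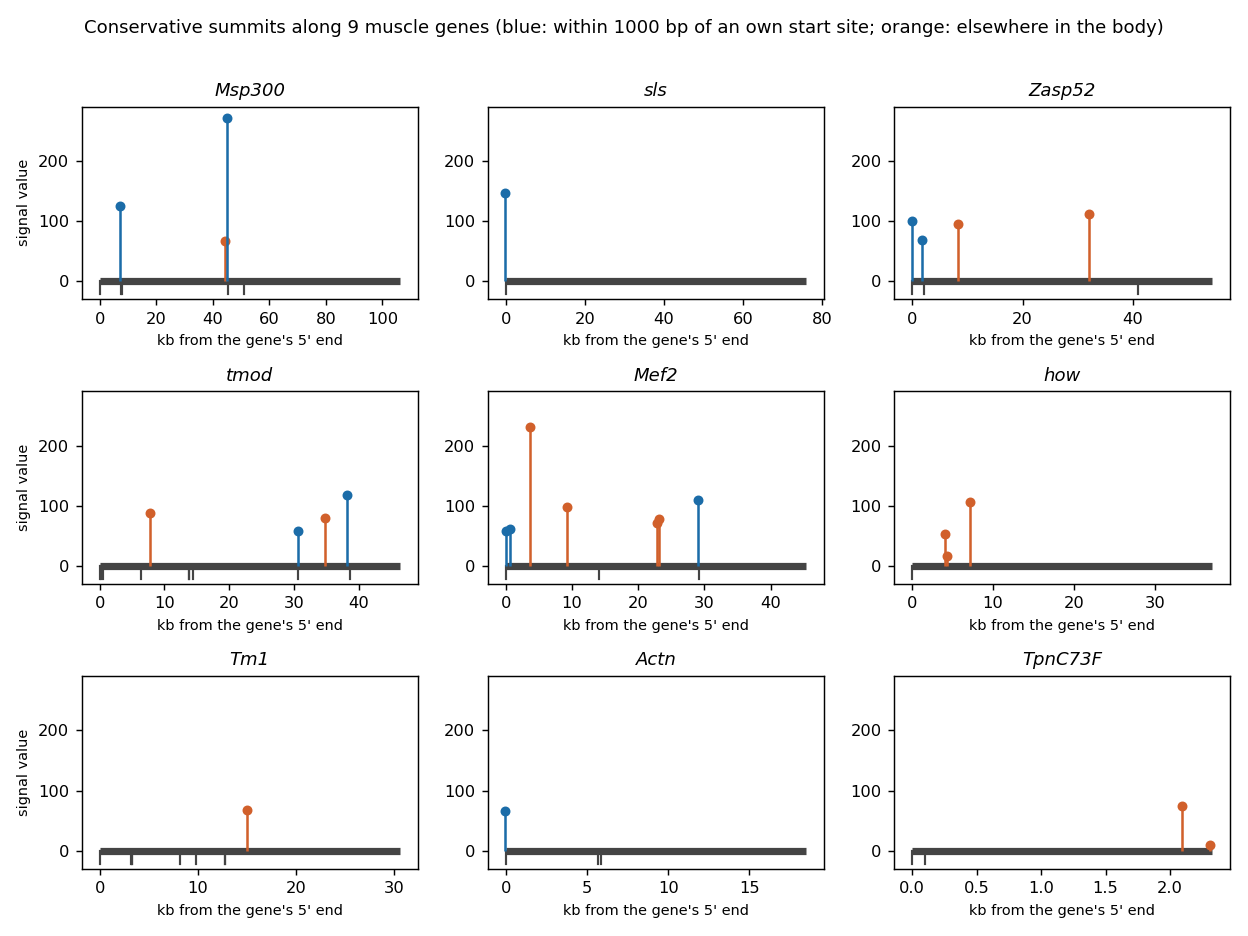
Signal value of each conservative summit (vertical axis) against its distance in kb from the gene's 5′ end, for the 9 genes with a summit, with blue for summits within 1000 bp of one of the gene's own start sites, orange for other summits in the body, the thick bar for the gene and ticks for its start sites. Msp300, tmod, Mef2 and Zasp52 have summits at internal start sites, sls and Actn have a single summit at the 5′ end, and how, Tm1 and TpnC73F have summits away from their start sites.

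Of the 26 summits linked to the 9 members, 11 were promoter summits and 15 lay elsewhere in a body. By place, 18 lay in introns, 3 in 5′ UTR exons, 2 in 3′ UTR exons and 3 outside the gene. Among the promoter summits 8 were upstream of the start site and 3 downstream. No share over all conservative summits stands beside these counts of places, so they are not read as a trait of muscle genes. The strongest promoter summits of the 6 bound members had a median signal of 114 (range 65.6 to 270.3), beside 98.1 over all 3223 bound genes. Over the 26 summits the median was 78.6, beside 85.6 for the whole list, and 2 exceeded its 90th percentile, the ones at Msp300 and in the first part of Mef2.

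At promoters the same members were called when each replicate was read by itself, except for Actn. The replicate 1 thresholded list held promoter summits at 6 members (18.8%), against 15.8% of all genes, and they were those of the conservative list. Replicate 2 held 5 (15.6%), against 19.3% of all genes. Body summits were found at 5 members (15.6%, against 11.3%) in replicate 1 and at 6 (18.8%, against 13.3%) in replicate 2. TpnC73F was the member that replicate 2 added, and Tm1 was in neither. The shares of members lay above the background in replicate 1 and below it in replicate 2 at promoters, and above it in both in bodies.

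Summit by summit, 12 of the 26 (46.2%) had a partner within 100 bp in both replicates' thresholded lists, beside 3052 of all 6776 conservative summits. A partner in 1 of them was found for 6, and in neither for 8. In the ranked lists 22 had a partner in both replicates. At these the log2 ratio of replicate 1 to replicate 2 signal had a median of −0.35 (SD 0.39, range −1.20 to 0.30), and 4 were higher in replicate 1. Over 5991 conservative summits matched in the same way the median was −0.25 (SD 0.46), and 1673 were higher in replicate 1. Because the scaling of each list is not stated, the sign of these ratios is not read as a difference in strength between replicates. The member values are read beside those of all matched summits.

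**Figure D3:**
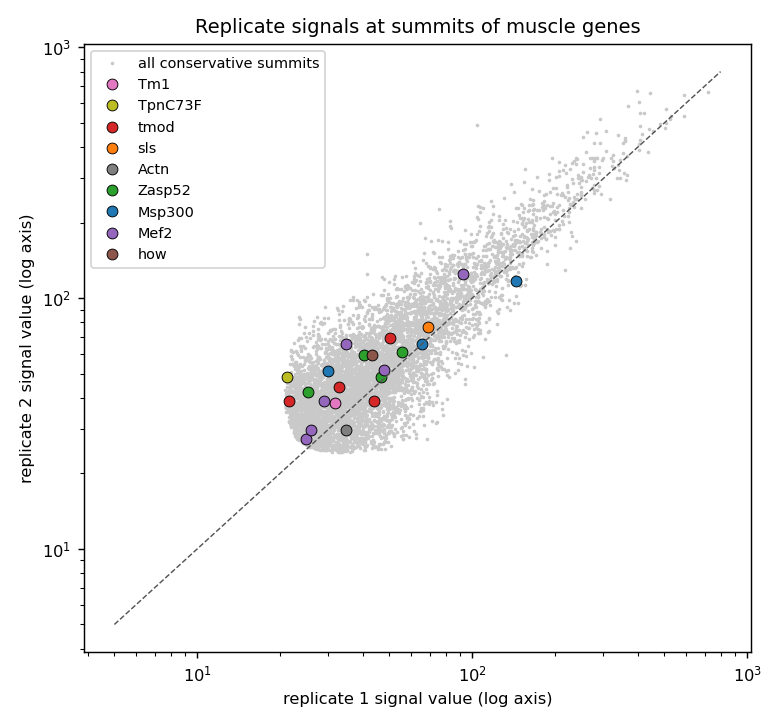
Signal value in replicate 2 against replicate 1 (both axes log) for the 22 summits of the muscle genes found in both ranked lists (coloured by gene) and for the 5991 matched conservative summits (grey), with the dashed line marking equal signals. The muscle gene summits lie inside the grey cloud, and Msp300 at 144 and 117 and Mef2 at 92.3 and 125 are the highest.

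In the ranked lists, which include weak calls, the members' promoter shares lay near the background. In the conservative ranked list 19 members (59.4%) had a promoter summit, against 60.2% of all genes, and 21 (65.6%) had a body summit, against 49.7%. The replicate 1 ranked list had promoter summits at 21 members (65.6%, against 62.7%) and that of replicate 2 at 17 (53.1%, against 61.4%). Body summits were at 21 members in replicate 1 (65.6%, against 52.8%) and 18 in replicate 2 (56.2%, against 49.6%). No summit of either kind in the conservative ranked list or either replicate's ranked list was found for 9 members (28.1%), against 21.8% of all genes. These were Mf, fln, Act79B, Tm2, TpnC4, TpnC41C, bt, Mlp84B and Mp20.

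Long genes have more sequence and more start sites in which a summit can fall, so the counts were set beside genes of similar length. Under 3 kb, 0 of 8 members had a promoter summit, against 14.4% of all genes of that length. From 3 to 10 kb it was 0 of 9, against 31.6%, and from 10 to 30 kb it was 1 of 7, against 45.4%. At 30 kb or more it was 5 of 8 (62.5%), against 49.8%. Taken as 2 classes, 0 of 17 members under 10 kb were bound, against 19.2%, and 6 of 15 (40.0%) at 10 kb or more, against 46.9%. By number of start sites, 1 of 12 members with a single one was bound, against 16.4%, and 5 of 20 (25.0%) with more than 1, against 41.7%. Below 30 kb the members' promoter shares thus lay under those of all genes, on 7 to 9 members a class, and whether they differ was not tested.

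In the gene bodies, 21 of the 23 summits lay in members of 30 kb or more, which make up 448 of the members' 621 kb. At 30 kb or more, 6 of 8 members had a body summit, beside 61.8% of all genes of that length. From 3 to 30 kb no member had one, where the shares of all genes were 22.1% in the shorter class and 49.8% in the longer. Per 100 kb of gene body the members held 3.70 summits, beside 5.17 over all genes. In the longest class it was 4.69 beside 4.38. Under 3 kb, 1 of 8 members, TpnC73F, had body summits (12.5%, beside 4.42%). Its 2 summits, which belong to overlapping peaks, fall in the 16.6 kb of that class, where all genes held 3.29 per 100 kb.

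**Figure D4:**
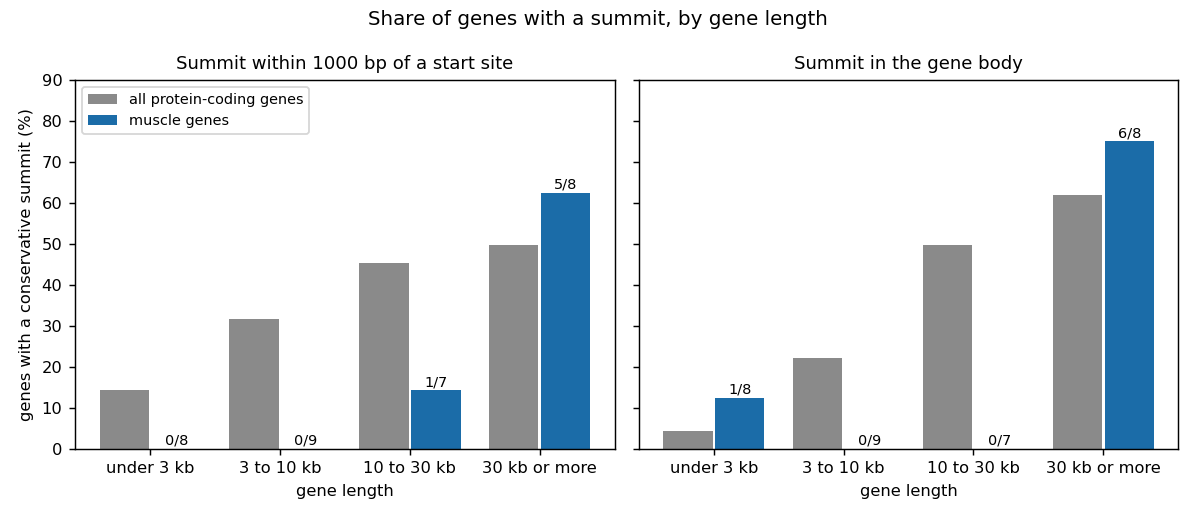
Percentage of genes with a conservative summit within 1000 bp of a start site (left) or in the gene body (right) by gene length, with grey bars for all protein-coding genes and blue bars for the muscle genes, labelled with the number bound of the number in the class. No muscle gene under 10 kb had a promoter summit, and 5 of 8 at 30 kb or more did.

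Motifs were counted on both strands within 50 bases to either side of the 26 member summits. An E-box, CANNTG, was present at 11, beside 36.4% of all conservative summits. The E-box CAGGTG, which lies within CAACAGGTG and within CANNTG, was present at 1, the TpnC73F summit described above, beside 3.28%. GAGAG, the core of the site for the GAGA factor, was present at 6, beside 19.6%. TATAAA was present at 3, beside 16.8%. The MEF2 site, searched as the usual AT-rich consensus of that factor, was present at 0 of the 26 summits, beside 4.72% of all summits. Within 100 bases to either side it was present at 2, both at Msp300, beside 8.19% of all summits. A match describes the letters and does not show that a factor binds there.

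The promoters themselves, from 250 bp before to 50 bp after any start site, were searched in the same way. A gene with more start sites thus has more sequence searched. Of the 32 members 20 had 2 or more start sites, beside 3699 of all 13945 genes. The part of this in the following counts was not tested. The MEF2 site was present in 12 of the 32 members, beside 17.0% of all genes, and 8 of these were filament genes, such as Mhc, Act57B, Tm1 and up. CAACAGGTG was in no member's promoter, beside 0.523% of all genes. CAGGTG was in 6, beside 12.4%, of which tmod, Actn and Mef2 were bound and up, wupA and Mlp84B were not. E-boxes of any kind were in 28 of the 32 members, beside 81.9% of all genes. GAGAG was in 18 of the 32, beside 36.3% of all genes, and TATAAA in 16, beside 51.2%.

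Other genes of muscle were counted from 6 further lists, against the same 23.1% of all genes with a conservative promoter summit. For the counts by replicate, which use the thresholded lists, the shares of all genes were 15.8% in replicate 1 and 19.3% in replicate 2. Muscle attachment genes, which join muscle to tendon cells, had summits at 12 of 19 (63.2%), with 10 in replicate 1 and 14 in replicate 2. The highest were at Lrt with 182, at Pax with 181 and at Dg with 116, followed by mys, where Lrt encodes a leucine-rich repeat protein of tendon cells, Pax encodes paxillin, Dg dystroglycan and mys the beta integrin. The Pax summit is shared with Alp12 and CG13085, and that of mys with fs(1)h. Other sarcomere and muscle cytoskeleton genes had 10 of 20, with 4 in replicate 1 and 6 in replicate 2, led by the formin gene Fhos at 347, CAP at 138, mtm at 135 and the filamin gene cher at 102. The mtm summit is shared with CG31643 and CG9117.

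Myoblast fusion genes had 7 of 20 (35.0%), with 4 in replicate 1 and 10 in replicate 2. They were led by Hem, of the actin-nucleating WAVE complex, at 189.7, shared with IleRS. The adhesion receptor gene kirre followed at 110.1, siz at 102 and the small GTPase gene Rac2 at 92.3. Muscle transcription factor genes had 8 of 27 (29.6%), with 6 in replicate 1 and 8 in replicate 2. They were led by tin at 370.4, ct at 299.7, org-1 at 276 and salr at 196. Calcium handling and neuromuscular receptor genes had 4 of 19 (21.1%), with 5 in replicate 1 and 3 in replicate 2. The highest were stj at 259, jp at 189, Orai at 122 and SERCA at 73.2. The 5 glutamate receptor subunit genes of that list had none.

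The nonmuscle actin and myosin genes give a view of the same protein families outside the sarcomere. Of 5, 3 had a promoter summit (60.0%), with 3 in replicate 1 and 2 in replicate 2. Act5C, a cytoplasmic actin gene, had a signal of 301, sqh, the nonmuscle regulatory light chain gene, had 128, and zip, the nonmuscle heavy chain gene, had 64.9 at a summit shared with uzip. Act42A and Mlc-c had none. The 4 muscle actins and the 3 muscle myosin chains had none either, and the difference between these small groups was not tested. Median gene lengths were 17.4 kb for attachment, 27.1 kb for the other cytoskeleton list, 6.93 kb for fusion, 11.3 kb for transcription factors, 13.8 kb for calcium handling and 3.40 kb for the nonmuscle list, and the part of length in these shares was not tested.

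**Figure D5:**
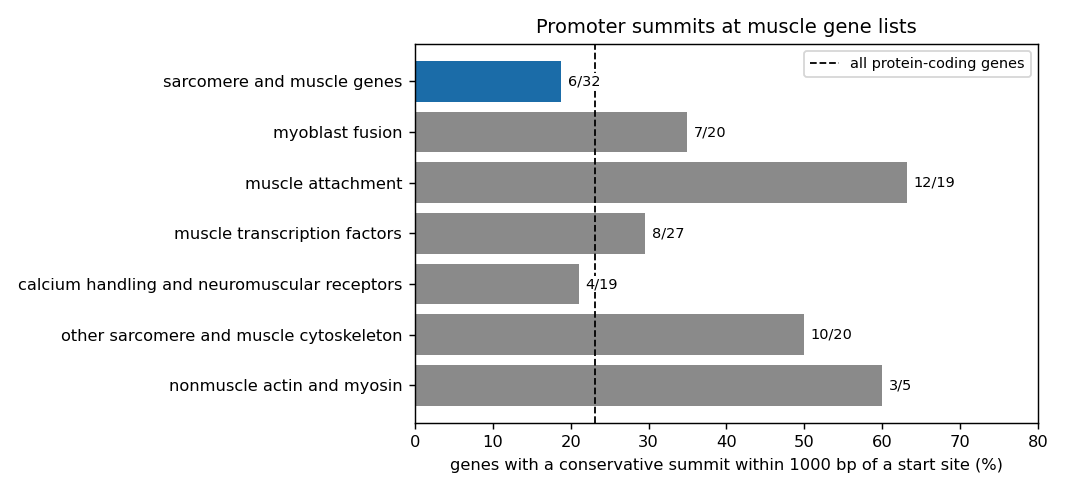
Percentage of genes with a conservative summit within 1000 bp of a start site in the sarcomere and muscle gene list (blue) and in 6 other lists of muscle and cytoskeletal genes (grey), with the number bound of the number in each list beside the bar and the dashed line at 23.1% for all protein-coding genes. The sarcomere list at 18.8% and the calcium handling list at 21.1% lie left of the line, and the others lie right of it.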

How the data were processed

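Chromatin immunoprecipitation sequencing of CG12605-eGFP pupae was analysed from 8 peak lists on dm6. Per the deposited text files, the authors used a control alignment for peak calling and then ranked the peaks by IDR. The aligner and the caller were not given in the sources used here. The signal value of a peak is the authors' own, of unstated scaling. The integer score deposited by the authors is 125 times the log2 of 1/IDR, capped at 1000, and their ranked lists carry the IDR as a −log10 value, from which IDRs were read. A further input file to the thresholded lists, the control alignment and the signal tracks were not analysed here, and depth is unknown.

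Summits were placed on the Ensembl 115 annotation with Python 3.11.15, pandas 2.3.3 and numpy 2.4.6, after a check on simulated positions. Sequences come from the RefSeq Release 6 genome, and figures from matplotlib 3.10.9. Replicate summits were matched within 100 bp. All members are named, and of each other list up to 4 genes with the highest promoter signal. The members and lists were chosen with earlier results of these data known. Alternatives covered the list, each replicate, an IDR of 0.005, the stronger peaks, peak intervals, shared summits, distances of 500 and 2000 bp and start site definitions. No test was run, since there is 1 group.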

Additional observations from a re-analysis of the deposited data

How the results depend on the processing

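The count of members with a promoter summit, 6, ran from 4 to 8 over the alternatives. It was 4 with the gene's 5′ end as the single start site (Msp300 and tmod drop out, 21.0% of all genes), 8 within 2000 bp (adding Mlc1 and TpnC73F, 28.7%) and 7 with the series-level thresholded list (adding how, 23.6%). Reading 1 replicate gave 5 to 6. It was 5 without summits shared with another gene (12.5%) and 5 with the stronger peaks alone (13.9%). Putting back the ranked peaks within the IDR limit, an alternative chosen after seeing the data, gave 7 by adding Tm1 (23.7%). The count with a body summit, 7, ran from 5 to 9, with 9 when peak intervals replaced summits (20.3%), and 5 to 6 from 1 replicate. It stayed at 7 for summits more than 1000 bp from every own start site (8.03%), and was 5 with the stronger peaks alone (9.95%). These shares are over genes of all lengths. The median signal of 114 ran from 109 to 133 within the series-level lists. It was 45.3 to 69.2 in the replicates' own lists, whose scale differs. Within 100 bases to either side E-boxes were at 18 of the 26 member summits, beside 61.3% of all conservative summits. In that window GAGAG was at 10, beside 36.3%, and TATAAA at 6, beside 26.3%. No paired analysis was possible because there is 1 group. Peak lists without depth limit precision, and a missing summit does not show that binding is absent.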
